A study of Mus musculus with 12 samples.

Results

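The genes described are the 10 that cover the last part of glycolysis and the fate of its product: Tpi1, Pgk1, Pgam1 and Pkm of lower glycolysis, the lactate dehydrogenases Ldha and Ldhb, the lactate transporters Slc16a1 and Slc16a3, and the pyruvate dehydrogenase kinases Pdk1 and Pdk2. They were chosen by gene symbol, with no measured value in the rule, but with earlier results of these data known. All 10 were found among the 22180 genes measured. Expression was measured on an Affymetrix gene array in primary aortic smooth muscle cells of C57BL/6J mice, grown in DMEM that held 10% fetal calf serum and used at passage 3 to 4. One group was kept at 0.3 g/l glucose (1.7 mM) and the other at 4.5 g/l (25 mM), with 6 arrays each, numbered as replicates 1 to 6; the series text gives 14 days of culture and the sample labels 1 week. The labels name no separate cultures or animals behind the numbers, so what the p-values weigh is variation among these arrays, possibly technical only. The question was how the glucose supply alters expression in these cells, and an osmotic control was not analysed here.

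Lower glycolysis turns triose phosphates into pyruvate and yields ATP. Pyruvate is then either reduced to lactate, which leaves the cell through proton-linked monocarboxylate transporters, or enters mitochondria, where the pyruvate dehydrogenase complex commits it to oxidation unless its kinases switch the complex off. Vascular smooth muscle is known for converting much of its glucose to lactate even when oxygen is plentiful.

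Values are log2 RMA values, the authors' normalized signal per probe set; a log2 difference is 4.5 minus 0.3 g/l unless said otherwise, and a gene was counted as changed at a limma adjusted p of 0.05 over all 22180 genes. Replicate 4 of the 0.3 g/l group stood apart. Its score on the first principal component was 17.2, inside the 12.5 to 26.2 of the 4.5 g/l group and far from its own group's -30.2 to -24.4, so the differences of the 10 genes are given with and without it. Smooth muscle markers were present, with list means of 9.37 to 9.63 in the other 5 arrays of 0.3 g/l, 10.6 in replicate 4 and 11.1 to 11.3 in 4.5 g/l; 6 of 7 rose and desmin, Des, did not pass. All 7 endothelial markers averaged above 4.20, the value below which the dimmest 25% of genes lay, with Cdh5 at 11.1 and Emcn at 11.7 in 0.3 g/l. One of them, Emcn, fell, and 3 did without 0.3 g/l replicate 4. Over all genes 7.01% rose and 8.52% fell, or 10.3% and 13.6% without that array. The endothelial list mean of an array was 8.20 to 8.30 in 0.3 g/l apart from replicate 4, which had 7.69. Within 4.5 g/l, replicates 1 to 3 had 8.17 to 8.27, but replicates 4 to 6 only 7.51 to 7.55. None of the 6 macrophage, 5 fibroblast or 4 adipocyte markers passed with 12 arrays (1 fibroblast marker, Pdgfra, rose without 0.3 g/l replicate 4), and Ptprc, Adgre1, Lum and Adipoq averaged below 4.20.

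Of the 10 genes, 4 rose in 4.5 g/l glucose (Pkm, Ldha, Slc16a3 and Pdk2), 1 fell (Slc16a1) and 5 did not pass (Tpi1, Pgk1, Pgam1, Ldhb and Pdk1). Over all genes 15.5% passed, 7.01% upward and 8.52% downward, so 50% of these genes stood against that background. That background includes the dimmest 25% of genes, and none of the 10 was among them. With those dim genes left out, 3956 of 16635 genes passed, and 5 of the 10 still did. The 10 were chosen with earlier results of these data known, so such shares are a description. The median log2 difference of the 10 genes was 0.19, and that of all genes was -0.01. The fall of Slc16a1 was the largest of the 10, and the 4 rises were all below 0.4 on the log2 scale. The groups did not overlap in Pkm, Ldha and Slc16a1, 30% of these genes, where 6.4% of all genes did not overlap. In these bulk samples fewer cells of a type and less RNA per cell cannot be told apart. Without 0.3 g/l replicate 4, 6 of the 10 passed, with Ldhb added, against 23.9% of all genes; 5 rose and 1 fell, where 10.3% and 13.6% of all genes did. The groups then did not overlap in 5 of the 10 (Pgk1 and Ldhb added), against 18.9% of all genes. Within replicates 1 to 3 alone Ldha, Ldhb and Slc16a1 passed, 3 of 10 against 13.1% of all genes; within replicates 4 to 6 none did, against 0.135%, and Ldha and Slc16a1 did once the 0.3 g/l replicate 4 was left out there, against 15.5%. In an exact rank-sum test Pkm, Ldha and Slc16a1 passed, against 8.99% of all genes. With p adjusted over all 41345 probe sets instead of genes, the same genes passed. Slc16a3 and Pdk2 then did not (limma adjusted p = 0.0616 and 0.0715).

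**Figure D1:**
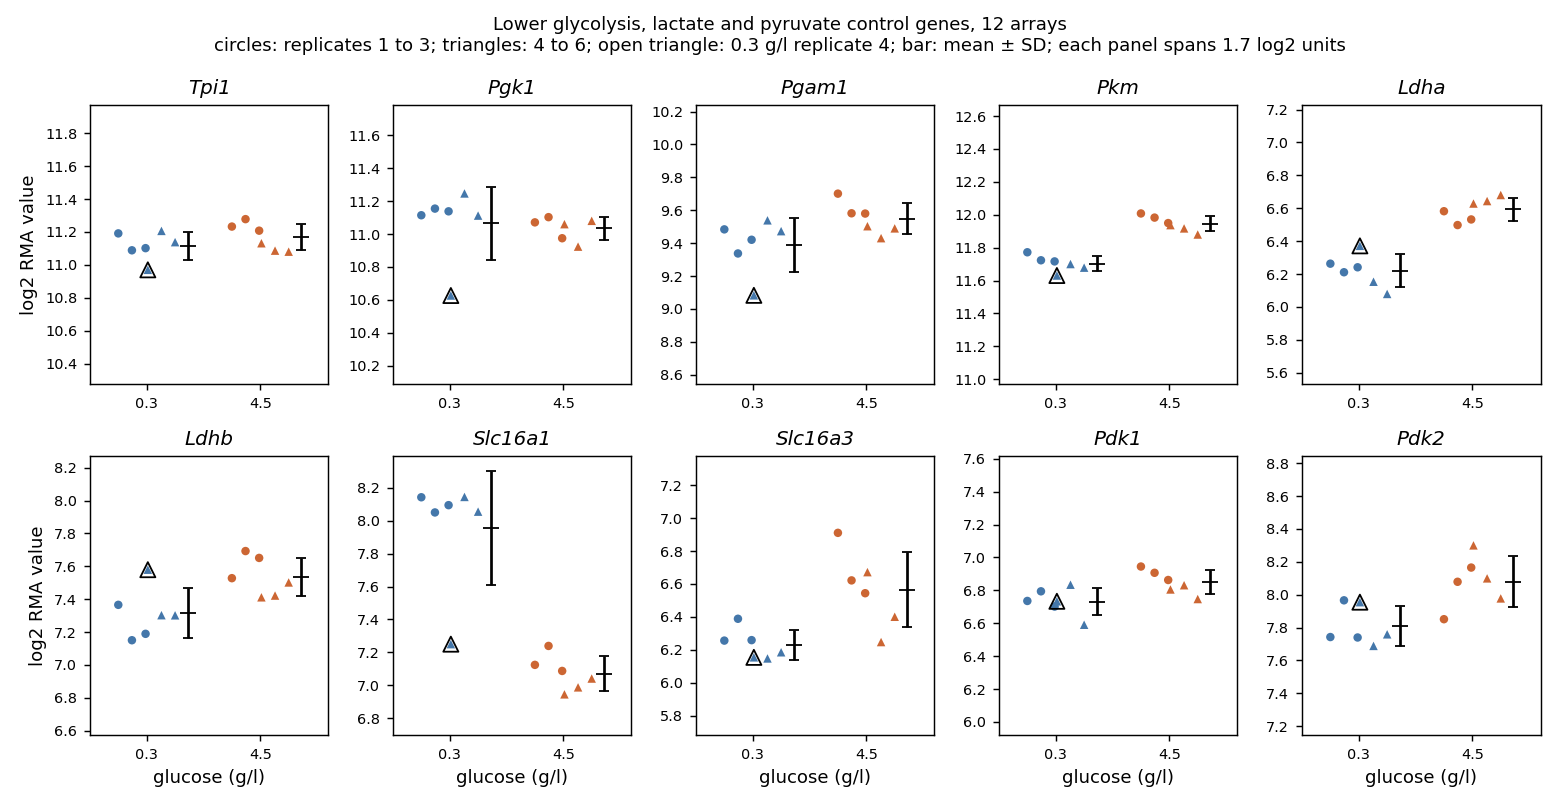
Log2 RMA values of the 10 genes in every array, with glucose (g/l) on the horizontal axis and the mean and SD of each group of 6 beside the points. Slc16a1 lies between 8.05 and 8.15 in 5 arrays of 0.3 g/l and at 7.25 in replicate 4, near the 6.94 to 7.24 of 4.5 g/l, while Pkm and Ldha separate the groups in all 12 arrays.

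The sequences shown here are the 250 bases before the first listed promoter start of the 3 genes with the largest differences, from RefSeq's promoters of mouse build GRCm38.p6, in which all 10 genes were matched. For Ldha, which has 2 listed promoters, and for Slc16a3 this start lies downstream of the outermost start that RefSeq gives the gene, so the stretch lies within the annotated gene. Capitals mark CACGTG, the symmetrical E-box read by several basic helix-loop-helix factors, and ACGTG on either strand, one form of the core of the element bound by hypoxia-inducible factors (the other is GCGTG, not in capitals); each CACGTG also holds ACGTG. The stretch of Slc16a1 is chr3:104638414-104638663, that of Ldha chr7:46845554-46845803 and that of Slc16a3 chr11:120948817-120949066, all on the plus strand.
Slc16a1: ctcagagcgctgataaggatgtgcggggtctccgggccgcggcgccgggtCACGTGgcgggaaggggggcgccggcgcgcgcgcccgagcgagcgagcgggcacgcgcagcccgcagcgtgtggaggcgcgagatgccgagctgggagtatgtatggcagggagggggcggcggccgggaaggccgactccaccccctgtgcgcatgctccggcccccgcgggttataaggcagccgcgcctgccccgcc
Ldha: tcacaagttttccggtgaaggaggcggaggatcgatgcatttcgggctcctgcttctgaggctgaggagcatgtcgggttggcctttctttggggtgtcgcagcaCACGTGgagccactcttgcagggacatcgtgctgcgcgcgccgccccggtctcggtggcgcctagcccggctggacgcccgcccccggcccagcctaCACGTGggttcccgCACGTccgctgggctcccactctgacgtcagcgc
Slc16a3: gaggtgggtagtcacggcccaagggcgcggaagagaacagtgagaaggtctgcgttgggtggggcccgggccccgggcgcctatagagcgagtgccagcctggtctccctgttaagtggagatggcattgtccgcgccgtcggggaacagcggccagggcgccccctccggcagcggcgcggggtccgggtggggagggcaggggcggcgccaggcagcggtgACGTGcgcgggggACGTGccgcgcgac
In windows of 300 bases, which reach 50 bases past the start, CACGTG was found in the first listed promoter of 3 of the 10 genes, Ldha, Slc16a1 and Pdk2, and in 7.15% of all 32851 promoters listed. ACGTG on either strand was found in 6 of 10, these 3 with Pgk1, Pgam1 and Slc16a3, and in 19.6% of all. GCGTG on either strand was found in 5 of 10, Pgam1, Ldha, Ldhb, Slc16a1 and Pdk1, and in 32.4% of all. The E-box genes thus comprised 2 that rose and 1 that fell, and Pkm, which rose, held none of these motifs in its first listed promoter. The other listed promoter of Pkm did hold ACGTG. These matches describe the letters in the windows and do not show that a factor binds there.

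Of Tpi1, Pgk1, Pgam1 and Pkm, Pkm alone passed with 12 arrays. Tpi1, which interconverts the triose phosphates, had a lowest, median and highest value of 10.97, 11.12 and 11.21 in 0.3 g/l and of 11.08, 11.17 and 11.28 in 4.5 g/l. The groups overlapped widely, and the log2 difference was 0.05 ± 0.06 (SE; 95% interval -0.08 to 0.18; limma adjusted p = 0.652), or 0.02 without 0.3 g/l replicate 4. Within 4.5 g/l, replicates 1 to 3 lay at 11.21 to 11.28 and replicates 4 to 6 at 11.08 to 11.13, the same arrays that differed in endothelial markers; the part of those cells in this was not tested.

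Pgk1, the first ATP-yielding enzyme of glycolysis, lay at 11.11 to 11.25 in 5 arrays of 0.3 g/l, at 10.63 in replicate 4 and at 10.92 to 11.10 in 4.5 g/l. That one array was lower than all 11 others. With it the log2 difference was -0.03 ± 0.09 (limma adjusted p = 0.887), and without it the groups no longer overlapped and the difference was -0.12 ± 0.05 (95% interval -0.23 to -0.0025; limma adjusted p = 0.141), still short of the threshold.

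Pgam1, the phosphoglycerate mutase of most tissues, had 2 probe sets with its symbol, and neither passed. The brighter one, used here, lay at 9.08, 9.45 and 9.54 (lowest, median, highest) in 0.3 g/l and at 9.43, 9.54 and 9.70 in 4.5 g/l, a difference of 0.16 ± 0.08 (limma adjusted p = 0.225). The 9.08 was replicate 4, without which the difference was 0.10 (limma adjusted p = 0.312). The other averaged 6.69 ± 0.11 and 6.67 ± 0.22 (SD, n = 6), a difference of -0.02 ± 0.10. RefSeq names 2 pseudogenes of Pgam1, 2 of Pgk1, 3 of Ldha and 1 of Ldhb, and whether probe sets of these genes share signal with such copies was not tested.

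Pkm, pyruvate kinase of muscle and most other tissues, makes pyruvate and ATP in the closing step; its splice isoforms are not told apart in the gene-level value. It lay at 11.63, 11.71 and 11.77 in 0.3 g/l and at 11.88, 11.94 and 12.01 in 4.5 g/l. Every 4.5 g/l array was above every 0.3 g/l array, replicate 4 included, which had the lowest value of all. Pkm rose by 0.24 ± 0.05 (1.18-fold; 95% interval 0.13 to 0.35; limma adjusted p = 0.00553), and by 0.23 ± 0.05 without 0.3 g/l replicate 4. The difference was 0.24 within replicates 1 to 3 and 0.24 within replicates 4 to 6, where with fewer arrays it did not pass (limma adjusted p = 0.0559 and 0.237).

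Of the lactate dehydrogenases, Ldha rose and Ldhb did not pass with 12 arrays. Ldha encodes the subunit that favours reduction of pyruvate to lactate, and Ldhb the subunit that favours the reverse reaction. Ldha lay at 6.08, 6.23 and 6.37 in 0.3 g/l and at 6.50, 6.61 and 6.68 in 4.5 g/l. Replicate 4 was the highest of its group and still below every 4.5 g/l array. The log2 difference was 0.37 ± 0.06 (1.30-fold; 95% interval 0.24 to 0.51; limma adjusted p = 0.00132) and 0.40 ± 0.06 without that array. It was 0.30 within replicates 1 to 3 and 0.45 within replicates 4 to 6 (limma adjusted p = 0.0283 and 0.133).

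Ldhb lay at 7.15, 7.30 and 7.58 in 0.3 g/l and at 7.41, 7.51 and 7.69 in 4.5 g/l. The 7.58 was replicate 4, and the other 5 arrays ended at 7.37, below the whole 4.5 g/l group. The difference was 0.22 ± 0.08 (95% interval 0.05 to 0.39; limma adjusted p = 0.0837) with 12 arrays, and Ldhb passed without that array, at 0.27 ± 0.07 (limma adjusted p = 0.0102). It was 0.39 within replicates 1 to 3 and 0.05 within replicates 4 to 6 (limma adjusted p = 0.0294 and 0.866). Within 4.5 g/l the subunits were ordered oppositely by replicate range. Replicates 1 to 3 had lower Ldha (6.50 to 6.58) and higher Ldhb (7.53 to 7.69) than replicates 4 to 6 (6.63 to 6.68 and 7.41 to 7.50). Such a split was not particular to these genes. Replicates 1 to 3 were also wholly above 4 to 6 in Tpi1, Pgam1 (9.58 to 9.70 and 9.43 to 9.50) and Pkm (11.95 to 12.01 and 11.88 to 11.94). The same held for Slc16a1 (7.09 to 7.24 and 6.94 to 7.04) and Pdk1 (6.86 to 6.94 and 6.75 to 6.83). In Pgk1, Slc16a3 and Pdk2 the ranges overlapped. Replicates 4 to 6 of 4.5 g/l were also the arrays with the low endothelial list means, whose part in this was not tested.

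Whether paired genes moved by different amounts was tested on their log2 difference within each array, in 3 pairs, with a two-sided exact permutation test over 924 assignments and Benjamini-Hochberg adjustment over the 3. Ldha minus Ldhb was higher in 4.5 g/l by 0.15 (95% interval -0.04 to 0.35; exact permutation p = 0.110, adjusted p = 0.141), so a difference between the subunits' shifts was not established. It was -0.09 within replicates 1 to 3 and 0.40 within replicates 4 to 6. With 3 arrays a group the exact permutation test cannot reach the threshold, so no p is given for these subsets.

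**Figure D2:**
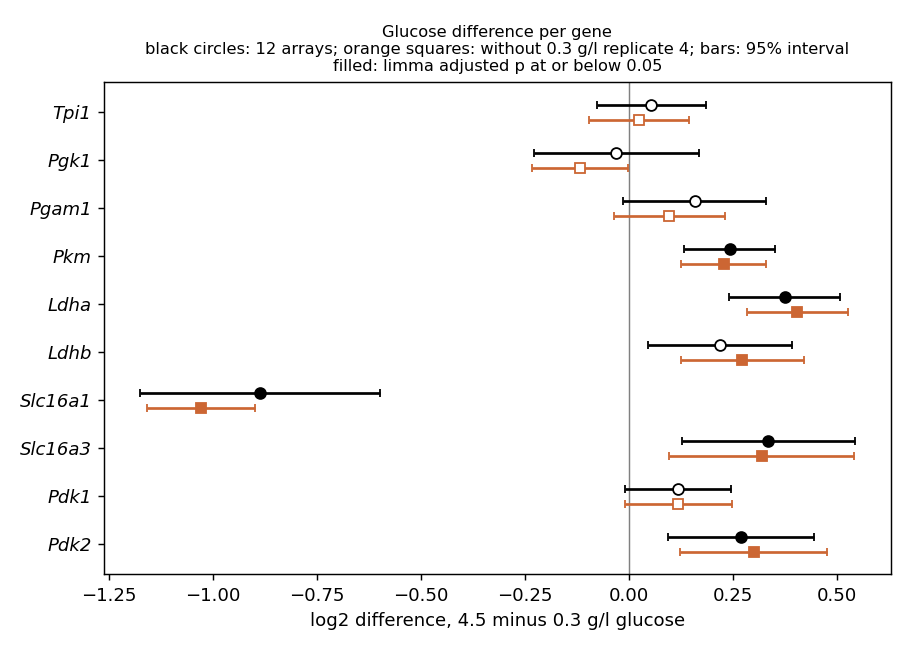
Log2 differences (4.5 minus 0.3 g/l) with 95% intervals for the 10 genes, with all 12 arrays (black circles) and without 0.3 g/l replicate 4 (orange squares); filled symbols passed a limma adjusted p of 0.05. Slc16a1 lies at -0.89 and -1.03, and Ldhb passes in the smaller set alone.

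The lactate transporters moved in opposite directions. Slc16a1 encodes MCT1, a widely expressed carrier that takes up or releases lactate and pyruvate, and Slc16a3 encodes MCT4, known for lactate export from strongly glycolytic cells. In 0.3 g/l, Slc16a1 lay at 8.14, 8.05, 8.10, 7.25, 8.15 and 8.06 in replicates 1 to 6. In 4.5 g/l it lay at 7.12, 7.24, 7.09, 6.94, 6.99 and 7.04. Replicate 4 of 0.3 g/l stood just above the highest 4.5 g/l array, and the other 5 arrays stood far above. Slc16a1 fell by 0.89 ± 0.13 on the log2 scale (1.85-fold lower in 4.5 g/l; 95% interval -1.17 to -0.60; limma adjusted p = 0.000812), and without replicate 4 it fell by 1.03 ± 0.06 (2.04-fold lower). It passed within replicates 1 to 3 (-0.95, limma adjusted p = 0.000431) and did not within replicates 4 to 6 with that array kept (-0.83, limma adjusted p = 0.160); with that array left out there, it passed (-1.11, limma adjusted p = 0.000792).

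Slc16a3 lay at 6.15, 6.22 and 6.39 in 0.3 g/l and at 6.25, 6.58 and 6.91 in 4.5 g/l. The spread within 4.5 g/l was wide, and replicate 5, at 6.25, lay inside the 0.3 g/l range. Slc16a3 rose by 0.33 ± 0.10 (1.26-fold; 95% interval 0.13 to 0.54; limma adjusted p = 0.0313), and by 0.32 when 0.3 g/l replicate 4 was dropped (limma adjusted p = 0.0384). This call rested on few arrays: it was lost on leaving out 1 of 7 arrays (0.3 g/l replicates 1, 3, 5 or 6, or 4.5 g/l replicates 1, 2 or 4), with adjusted p of up to 0.0701, while the difference stayed between 0.27 and 0.40 over all 12 omissions. It was 0.39 within replicates 1 to 3 and 0.28 within replicates 4 to 6, and passed in neither (limma adjusted p = 0.0604 and 0.320). A further probe set listed for both Csnk1d and Slc16a3 differed by 0.10 ± 0.06 and was not used.

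Slc16a1 minus Slc16a3 fell from 1.73 ± 0.33 to 0.50 ± 0.21 (log2 difference within an array, mean ± SD, n = 6), a shift of -1.22 (95% interval -1.58 to -0.87; exact permutation p = 0.00216, the smallest that 6 against 6 arrays allow; adjusted p = 0.00649). All 6 arrays of 4.5 g/l, at 0.21 to 0.74, lay below all 6 of 0.3 g/l, at 1.10 to 2.00, and replicate 4 held the 1.10. Without it the shift was -1.35. Both genes had passed singly, in opposite directions, so this test of the same values is not independent support for their shifts.

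**Figure D3:**
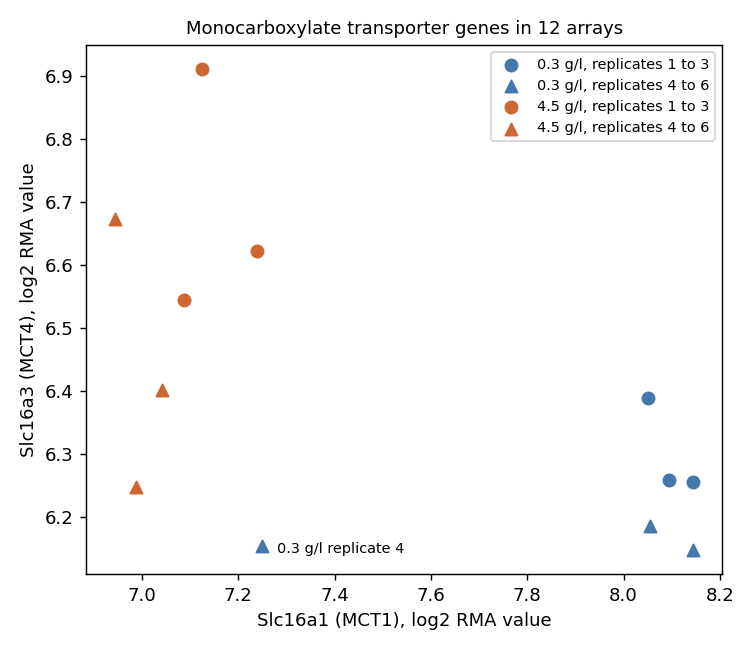
Log2 RMA values of Slc16a1 (horizontal) and Slc16a3 (vertical) in each array; circles are replicates 1 to 3 and triangles 4 to 6. The 4.5 g/l arrays lie at the left with Slc16a3 at 6.25 to 6.91, 5 arrays of 0.3 g/l lie at the lower right, and 0.3 g/l replicate 4 joins the 4.5 g/l arrays in Slc16a1 (7.25) but has a Slc16a3 value of 6.15.

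Of the pyruvate dehydrogenase kinases, which phosphorylate and so inactivate the pyruvate dehydrogenase complex, Pdk2 rose and Pdk1 did not pass. Pdk2, the most widely expressed of the kinases, lay at 7.69, 7.75 and 7.97 in 0.3 g/l and at 7.85, 8.09 and 8.30 in 4.5 g/l. The groups overlapped through 4.5 g/l replicate 1, at 7.85, and 0.3 g/l replicates 2 and 4, at 7.97 and 7.95. The rise was 0.27 ± 0.08 (1.21-fold; 95% interval 0.10 to 0.45; limma adjusted p = 0.0379). Dropping 0.3 g/l replicate 4 gave 0.30 (limma adjusted p = 0.0162). The call was lost on leaving out 1 of 8 arrays (0.3 g/l replicates 1, 3, 5 or 6, or 4.5 g/l replicates 2, 3, 4 or 5), with adjusted p of up to 0.0881 and a difference between 0.23 and 0.32 over all 12 omissions. Within replicates 1 to 3 it was 0.22 and within replicates 4 to 6 it was 0.32, and it passed in neither (limma adjusted p = 0.270 and 0.257).

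Pdk1, a kinase known as a target of hypoxia-inducible factor, lay at 6.59, 6.73 and 6.83 in 0.3 g/l and at 6.75, 6.85 and 6.94 in 4.5 g/l. It differed by 0.12 ± 0.06 (95% interval -0.01 to 0.25; limma adjusted p = 0.220), and by as much, 0.12, without 0.3 g/l replicate 4. A further probe set of Pdk1 gave values between 1.35 and 1.75 on all arrays, below the 4.20 of the dimmest genes. A difference between the shifts of the kinases was not established with all arrays: Pdk1 minus Pdk2 differed by -0.15 (95% interval -0.37 to 0.06; exact permutation p = 0.141, adjusted p = 0.141). Among omissions of 1 array it passed only without 4.5 g/l replicate 1 (-0.22, exact permutation adjusted p = 0.0162). Each other omission gave an exact permutation adjusted p of 0.132 to 0.288, with 0.169 without 0.3 g/l replicate 4.

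The genes whose pattern over the 12 arrays was most like that of a changed gene were named by Pearson's r, as a description; the arrays fall into 2 groups, so any genes that separate these groups correlate with each other, and no p is given. Closest to Slc16a1 were Derl1, of endoplasmic reticulum protein removal (r = 0.997), and Wars, the cytosolic tryptophanyl-tRNA synthetase (r = 0.992), which were lower by 0.74 and 1.57 on the log2 scale. Closest to Pkm were Nrbp2 (0.983) and Cd59a (0.978), and closest to Ldha were Tmem123 (0.984) and Ccdc6 (0.982). For Slc16a3 the highest r was 0.926, with Epha6, followed by Prkar1b at 0.920. Pdk2 came closest to Kcnrg (0.937) and Fzd2 (0.894).

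In the rest of glycolysis and glucose entry, 5 of 15 measured genes rose, 1 fell and 9 did not pass, with a median log2 difference of 0.03 (5 and 3 without 0.3 g/l replicate 4). Over all genes 7.01% rose and 8.52% fell, or 10.3% and 13.6% without that array, which is the background also for the 2 lists that follow. The phosphofructokinases, which commit sugar phosphate to glycolysis, all rose: Pfkp by 0.76 ± 0.07, Pfkl by 0.40 ± 0.06 and Pfkm by 0.37 ± 0.07 (limma adjusted p = 3.8e-05, 0.000924 and 0.00376). The remaining 2 that rose, named after their values were seen, were paralogues of lower glycolysis known from muscle: the phosphoglycerate mutase Pgam2, by 0.82 ± 0.17 (limma adjusted p = 0.00514), and the enolase Eno3, by 0.40 ± 0.12 (limma adjusted p = 0.0320). In 0.3 g/l replicate 4 both were above the rest of their group, with 5.83 against 4.82 to 5.04 for Pgam2 and 7.52 against 6.78 to 7.13 for Eno3. Hexokinase Hk2, which traps glucose as its phosphate, fell by 1.08 ± 0.18, where 0.3 g/l replicate 4 had 7.20 and the rest of that group 8.33 to 8.48. Gapdh, the enzyme between Tpi1 and Pgk1, was 13.20 ± 0.03 in 0.3 g/l and 13.23 ± 0.04 in 4.5 g/l (SD, n = 6), with a difference of 0.03 ± 0.05 (limma adjusted p = 0.727). Gpi1, Aldoa and Eno1 had no probe set under their symbol alone and were not analysed here.

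Of 9 other lactate and monocarboxylate genes, 1 rose, 2 fell and 6 did not pass (the same counts without 0.3 g/l replicate 4; median 0.05). Slc16a7, which encodes the high-affinity pyruvate and lactate carrier MCT2, rose from 7.24 ± 0.08 to 7.78 ± 0.16 (limma adjusted p = 0.000524), with no overlap of the groups. Emb and Bsg encode embigin and basigin, partner proteins that carry monocarboxylate transporters to the cell surface. Emb fell by 0.92 ± 0.21 (limma adjusted p = 0.00898), while Bsg differed by 0.08 ± 0.05 (limma adjusted p = 0.418). Slc5a8, a sodium-coupled monocarboxylate carrier, fell by 0.28 ± 0.08 (limma adjusted p = 0.0283) from a low 5.26.

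Of 17 genes of pyruvate entry and its control, 4 rose, 1 fell and 12 did not pass (4 and 4 without 0.3 g/l replicate 4; median -0.08). The other pyruvate dehydrogenase kinases both rose, Pdk4 by 0.61 ± 0.08 (limma adjusted p = 0.000252) and Pdk3 by 0.28 ± 0.07 (limma adjusted p = 0.0115). Pdp1, a phosphatase that reactivates the complex, rose too, by 0.22 ± 0.06 (limma adjusted p = 0.0214). Pdha1, the catalytic subunit they act on, differed by -0.16 ± 0.07 (limma adjusted p = 0.137), and it did pass once 0.3 g/l replicate 4 was dropped (-0.21, limma adjusted p = 0.0118). The mitochondrial pyruvate carrier gene Mpc1 differed by 0.11 ± 0.06 (limma adjusted p = 0.295), and Mpc2 was not analysed here. Me3, a mitochondrial malic enzyme, rose by 0.33 ± 0.07, and Gpt2, which exchanges pyruvate and alanine in mitochondria, fell by 0.92 ± 0.16 (limma adjusted p = 0.00691 and 0.00156).

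**Figure D4:**
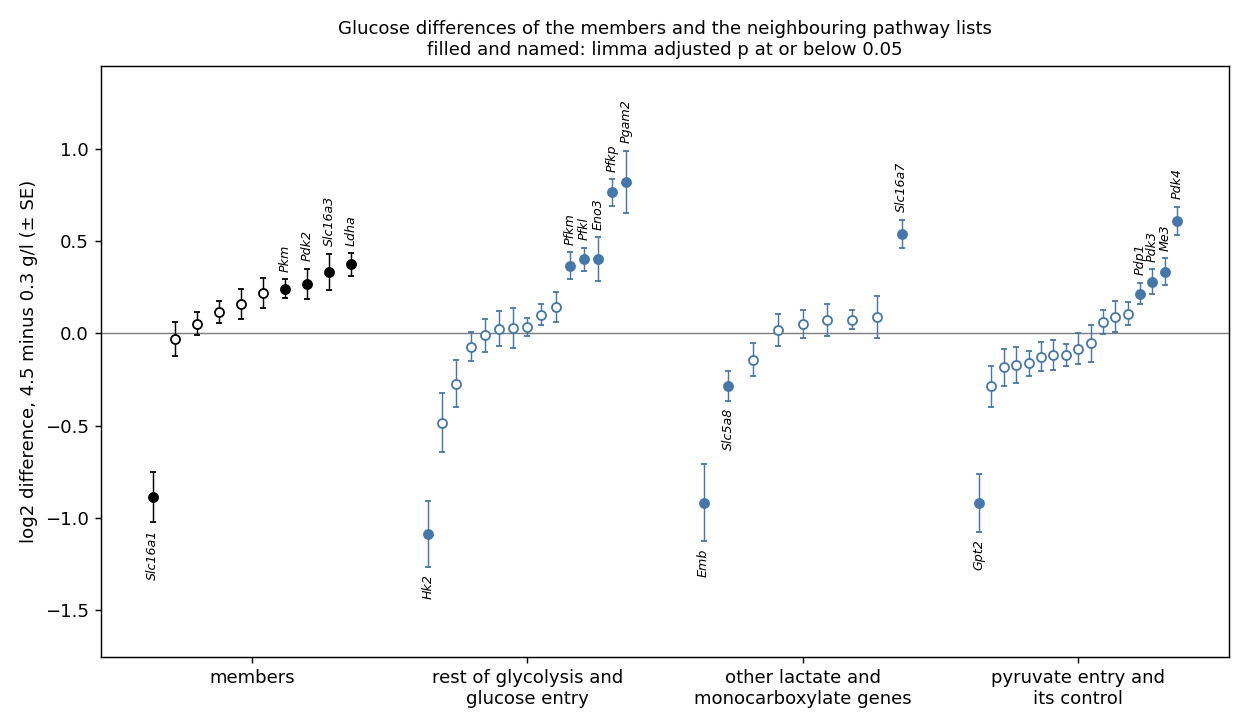
Log2 differences (4.5 minus 0.3 g/l, ± SE, 12 arrays) of the 10 genes and of the 3 neighbouring lists; filled and named points passed a limma adjusted p of 0.05. Slc16a1 (-0.89), Hk2 (-1.08), Emb (-0.92) and Gpt2 (-0.92) lie far below 0, and the rises of the 10 genes are smaller than those of Pfkp (0.76) and Pdk4 (0.61).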

How the data were processed

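Per the submitters' processing notes, the authors made the deposited log2 values, 1 per probe set and sample for 41345 probe sets, with Affymetrix Expression Console and RMA (by definition background correction, quantile normalization and probe summary); no version, genome build, detection call or scan date was given in the sources used here. Quantile normalization hides a change in total RNA per cell. Platform annotation gave 1 symbol to 23521 probe sets; each of 22180 genes was represented by its brightest probe set over 12 arrays. Of 90 list and marker entries, 86 were matched. The columns held no identical values.

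Log2 values of the groups of 6 were set against each other by lmFit and eBayes of limma 3.58.1 (R 4.3.3), two-sided and without a block, and p-values were adjusted over all genes (Benjamini-Hochberg). Precision is limited by having 12 arrays, and the median SE was 0.0931. Alternatives were other scalings, array weights, blocks, subsets of arrays and a rank-sum test. The fit was tested on simulated data with 50 genes changed at each size. It recovered 18% of changes of 0.3 on the log2 scale, 54% of 0.5 and 100% of 1. Of its 145 calls 9 were false. A gene that did not pass can thus still differ by a small amount. Genes outside the 10 were named when among the 4 smallest p of the changed genes of a list, or as the 2 most similar to a changed gene. A further set was always named (Gapdh, Aldoa, Eno1, Bsg, Pdk3, Pdk4, Pdp1, Pdha1, Mpc1 and Mpc2). Gpi1, Pgam2, Eno2, Eno3, Slc2a1 and the markers were named besides. Members, lists, pairs and alternatives were chosen with earlier results of these data known. Figures were drawn with matplotlib 3.10.9.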

Additional observations from a re-analysis of the deposited data

Results flagged for a closer look

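Values far from the rest of their group of 6 arrays were found in 9 of 60 groups of values tested. Far meant a gap to the nearest array of over 0.625 of the group's range (Dixon's test at the 95% level). Chance flags about 1 in 20 independent groups, but these shared arrays, and the pair differences reused values of single genes. The excess over that rate was therefore not tested. Of the 9, 8 were of 0.3 g/l replicate 4. Among the 10 genes, this array lay at 10.6 in Pgk1 (others 11.11 to 11.25) and at 7.25 in Slc16a1 (others 8.05 to 8.15), and its Slc16a1 minus Slc16a3 was 1.10 (others 1.66 to 2.00). In neighbouring genes it lay at 7.20 in Hk2 (others 8.33 to 8.48), 9.94 in Got1 (others 11.45 to 11.55), 7.69 in Gpt2 (others 8.41 to 8.51), 9.50 in Pdha1 (others 9.75 to 9.83) and 8.98 in Pdk4 (others 8.64 to 8.75). The remaining one was Bsg in 4.5 g/l replicate 6, at 12.49 (others 12.61 to 12.68).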

How the results depend on the processing

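Directions of Pkm, Ldha, Ldhb, Slc16a1, Slc16a3, Pdk1 and Pdk2 held under all 24 alternatives of the fit; Pkm, Ldha and Slc16a1 passed in each omission of 1 array. Sign changes were small and in genes that did not pass: Tpi1 was -0.0054 within replicates 4 to 6 and -0.073 there without 0.3 g/l replicate 4, where Pgam1 was -0.031; Pgk1 was 0.026 within replicates 4 to 6, and ran from -0.118 (without 0.3 g/l replicate 4) to 0.0062 (without 0.3 g/l replicate 5) on leaving out 1 array. Of the 10 genes 3 passed within replicates 1 to 3, 0 within replicates 4 to 6 (limma; 4 at an unadjusted p under 0.05), 2 there without 0.3 g/l replicate 4, and 3 to 6 on leaving out 1 array, all with fewer arrays; 3 passed in the exact rank-sum test of all 12 arrays (Pkm, Ldha and Slc16a1). Over all genes 3444 passed, against 5419 with array weights, 30 within replicates 4 to 6, 1993 in the rank-sum test and 2514 to 5295 on leaving out 1 array, the highest without 0.3 g/l replicate 4. Ldha minus Ldhb was -0.090 within replicates 1 to 3, and 0.40 and 0.39 within replicates 4 to 6 with and without 0.3 g/l replicate 4; on leaving out 1 array it ran from 0.12 to 0.21, Slc16a1 minus Slc16a3 from -1.35 to -1.16 and Pdk1 minus Pdk2 from -0.22 to -0.10. The cause of these shifts was not tested. Same-numbered arrays of the groups did not pair (correlations of deviations -0.05 to 0.17; 1 of 6 fitted its own number best). With the replicate block 5 of the 10 genes and 3130 of all genes passed, and Slc16a1 minus Slc16a3, at -1.22, had an adjusted p of 0.0938 in the exact sign-flip test (unadjusted 0.0312, the smallest 6 pairs allow).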

Other observations

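Genes of the shuttles that carry reducing power from glycolytic NADH into mitochondria, which compete with lactate dehydrogenase for NADH, were also measured. Of 6, none rose, 1 fell and 5 did not pass (3 fell without 0.3 g/l replicate 4). Over all genes 15.5% passed, so 1 of 6 was near that share, and 23.9% passed without that array. Got1, the cytosolic aspartate aminotransferase of the malate-aspartate shuttle, went from 11.24 ± 0.64 to 9.83 ± 0.09 (log2 value, SD, n = 6), a difference of -1.41 ± 0.23 (SE; limma adjusted p = 0.00118). Like Slc16a1 it was low in 0.3 g/l replicate 4, at 9.94, where the rest of the group lay at 11.45 to 11.55, and without that array it fell by 1.67. Values of Slc16a1 and Got1 in that array were thus near those of 4.5 g/l, while Pkm, at 11.63, Slc16a3, at 6.15, and Pgk1, at 10.63, were not. Of the rest of the 10 genes, Ldhb, at 7.58, and Pdk2, at 7.95, lay inside the 4.5 g/l range in that array. Tpi1, Pgam1, Ldha and Pdk1 lay below it.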
